A study of Homo sapiens with 9 samples.

Results

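The 10 genes of lipid droplets and fatty acid binding described here were followed in the human pancreatic tumour line PANC-1 across day 0, day 2 and day 14 of combined nutrient and oxygen deprivation. The genes (FABP5, G0S2, HILPDA, PLIN2, PLIN3, PNPLA2, ABHD5, DGAT1, DGAT2 and LPIN1) were taken by symbol from a table of 27800 symbols, and all 10 were present. FABP5 and G0S2 were chosen by their own log2 changes against day 0, which were among the largest falls, so their values are given as a description with no test, and the other 8 were tested. There were 9 RNA sequencing libraries, 3 for each day, and the table's headers mark all 9 as WT. The growth protocol read the same for all 9 libraries: DMEM in which glucose was 2.5 mM, amino acids were at 20% of their usual concentration and fetal calf serum was 0.5%, under oxygen deprivation and with no further treatment. Not given in the sources used here are the oxygen level and how the day 0 cells were kept. No group was kept undeprived for 2 or 14 days, so deprivation, time in culture and any batch by day cannot be told apart. All libraries came from 1 line, and nothing said whether replicates were separate cultures, so the p-values reflect the spread among these libraries alone, and that spread may be technical.

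Lipid droplets store triacylglycerol and sterol esters in a core that is coated by perilipins such as PLIN2 and PLIN3. Triacylglycerol is made from diacylglycerol by DGAT1 and DGAT2, and LPIN1 supplies the diacylglycerol. It is broken down by the lipase PNPLA2 (ATGL), which ABHD5 activates and which the small proteins G0S2 and HILPDA inhibit, and the released fatty acids are carried in the cytosol by binding proteins such as FABP5. Hypoxic tumour cells are known to accumulate droplets, and HILPDA is named for its induction by hypoxia.

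Values are in TPM (transcripts per 1000000), which are scaled by transcript length and to the same total in each library. They can therefore be compared between genes, but keep no sequencing depth, so the depth is unknown. Day 0 replicate 2 stood apart: its Pearson correlation with the other day 0 libraries across 14144 genes was 0.870 and 0.875, against 0.972 between those, and it had 11363 symbols at 1 TPM or more, against 13016 to 13868 elsewhere. MIR6723 alone held 16.2% to 32.6% of the TPM of a library. Ribosomal protein genes held 23.8% of the TPM of day 0 replicate 2, against 10.2% to 14.8% elsewhere. All microRNA and small nucleolar RNA symbols held 24.3% of it, against 29.9% to 43.4% elsewhere, and MIR4461 held 0.982%, against 6.44% to 11.2%. Since each library has the same total, such shares bear on the values of all other genes. All 4 PANC-1 markers (KRT8, KRT18, KRT19 and VIM) were at 174 TPM or more in every library, and they summed to 5480 to 5881 TPM at day 0, 2627 to 2937 TPM at day 2 and 2022 to 2358 TPM at day 14. Of 6 adipocyte markers only CFD reached 1 TPM (9.28 to 31.6 TPM), of 5 macrophage markers only FABP4 did, and of 4 fibroblast markers only COL1A1 did (8.29 to 72.6 TPM). No hepatocyte or acinar cell marker reached 1 TPM. At day 0, day 2 and day 14 the adipocyte markers summed to 9.54 to 27.5, 23.6 to 31.9 and 11.2 to 11.9 TPM, the macrophage markers to 2.76 to 11.5, 1.48 to 1.52 and 0.353 to 1.62 TPM, and the fibroblast markers to 10.1 to 61.1, 55.7 to 72.8 and 8.49 to 13.0 TPM. Their part in the results was not tested. ADIPOQ, PLIN1, CIDEC and LPL stayed at or below 0.435 TPM. The median log2 change of all tested genes was 0.23 at day 2 and 0.44 at day 14 against day 0, and 0.24 at day 14 against day 2. Median-ratio scaling, which brings that median to 0.03 and 0.02, turned the split of calls over all genes at day 14 against day 0 to 2418 higher and 2315 lower, in place of 3890 and 951.

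FABP5, a cytosolic carrier of long-chain fatty acids, was the most abundant of the 10 genes at day 0 and was sixth and seventh of 10 at days 2 and 14. Replicates 1, 2 and 3 of day 0 held 253, 470 and 185 TPM of it, and it was then at 17.8, 15.0 and 21.8 TPM at day 2, and at 12.7, 18.8 and 26.4 TPM at day 14. Every library of days 2 and 14 lay below every day 0 library, and days 2 and 14 overlapped. Its mean was 18.2 ± 3.39 TPM at day 2 and 19.3 ± 6.86 TPM at day 14, against 302 ± 149 TPM at day 0 (SD, n = 3 each). Its mean was thus 16.6-fold and 15.7-fold lower than at day 0. The fitted log2 change of TPM + 1 was -3.89 ± 0.37 (SE) at day 2, ranking 12th of 14144 genes among falls, and -3.85 ± 0.37 at day 14, ranking 7th. Day 0 replicate 2 held the highest value, and without it these changes were -3.51 and -3.47. In bulk RNA, fewer cells that express a gene and less of its RNA per cell cannot be told apart. Almost all FABP transcript was FABP5: it made up 97.7% to 98.8% of the summed TPM of 10 FABP family genes at day 0, 90.8% to 93.7% at day 2 and 94.9% to 95.2% at day 14. The other 9 family members together were at 0.637 to 11.1 TPM. FABP5 has 14 annotated pseudogenes, of which only FABP5P3 was in the table, at no more than 0.230 TPM, so reads from near-identical copies may be included in its value.

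**Figure D1:**
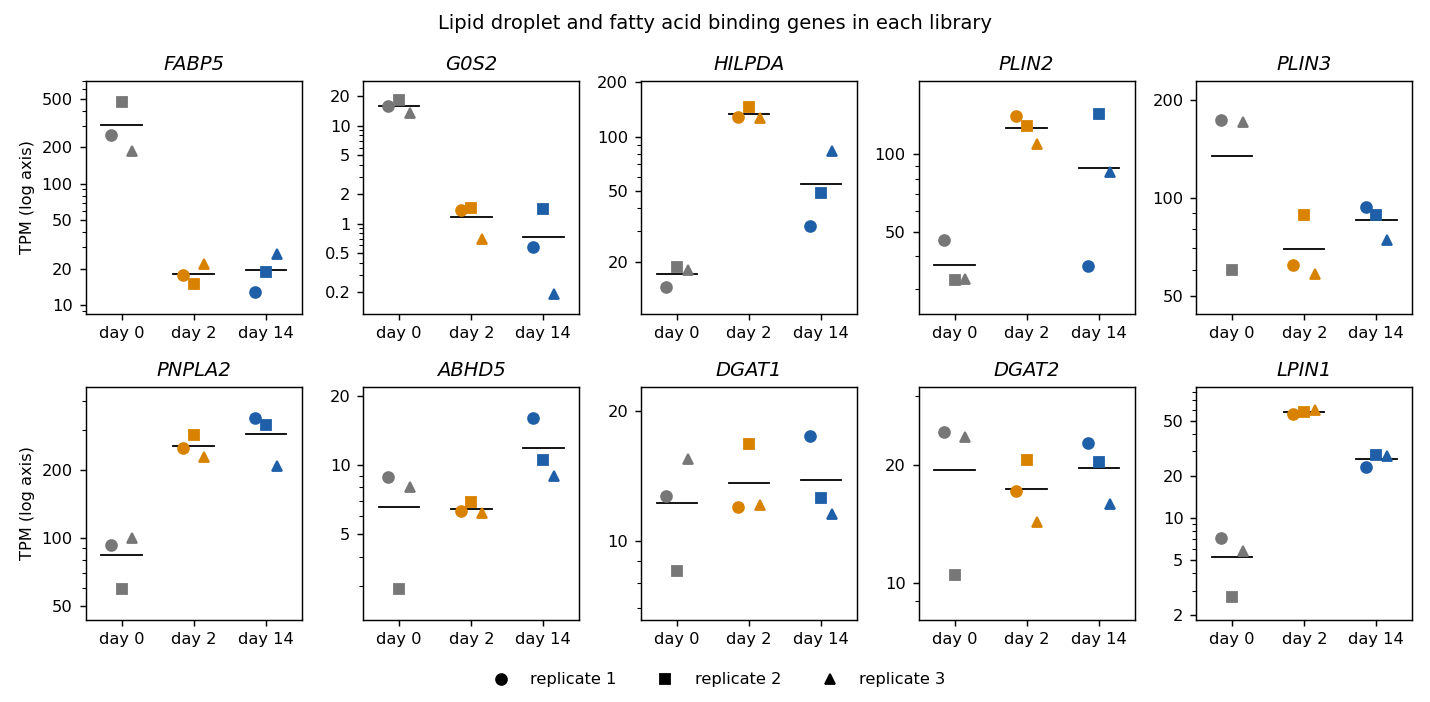
TPM of the 10 genes in each library, on log axes with a scale of its own per panel, with days on the horizontal axis, symbols for replicates and a line at the mean of 3. FABP5 and G0S2 sit far lower at days 2 and 14 than at day 0, and HILPDA, PLIN2 and LPIN1 are highest on average at day 2. Day 0 replicate 2 is the lowest of the 9 libraries for PLIN2 (by a small margin), PNPLA2, ABHD5, DGAT1, DGAT2 and LPIN1.

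G0S2, an inhibitor of PNPLA2, was near 1 TPM after day 0. It was at 16.0, 18.3 and 13.5 TPM at day 0, at 1.39, 1.43 and 0.696 TPM at day 2, and at 0.585, 1.43 and 0.190 TPM at day 14. All 6 later libraries were below all 3 day 0 libraries, and the later days overlapped. The mean was 1.17 ± 0.415 TPM at day 2 and 0.734 ± 0.632 TPM at day 14, against 15.9 ± 2.37 TPM at day 0 (SD, n = 3 each). These means were 13.6-fold and 21.7-fold lower than at day 0, and the fitted changes of -2.97 ± 0.28 and -3.34 ± 0.28 ranked 43rd and 16th of 14144 among falls. The highest day 0 library was 1.35-fold above the lowest, and without day 0 replicate 2 the changes were -2.87 and -3.24. Day 14 replicate 2 held most of the day 14 value: without it the day 14 mean was 0.387 TPM, which is 41.1-fold lower than at day 0.

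HILPDA, the other PNPLA2 inhibitor and a hypoxia-induced gene, rose on both later days. It was at 14.5, 18.8 and 18.1 TPM at day 0, at 128, 145 and 127 TPM at day 2, and at 32.0, 48.9 and 83.2 TPM at day 14. The 3 days did not overlap, with day 2 highest and day 0 lowest. The rise against day 0 was 7.77-fold at day 2 (log2 change 2.89 ± 0.31 SE, 2.66 relative to the median of all genes, limma adjusted p = 0.000477) and 3.19-fold at day 14 (1.52 ± 0.31, 1.08 relative to the median, adjusted p = 0.00712). The day 14 call was lost under median-ratio scaling (log2 change 1.0, adjusted p = 0.08). At day 14 against day 2 the log2 change was -1.37 ± 0.31 and was not called (adjusted p = 0.0923). It passed when day 0 was left out of the fit (adjusted p = 0.0369) or when day 0 replicate 2 was (adjusted p = 0.0194).

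PNPLA2, the lipase that starts the breakdown of stored triacylglycerol, rose and stayed up. It was at 92.9, 59.4 and 100 TPM at day 0, at 249, 285 and 228 TPM at day 2, and at 338, 315 and 208 TPM at day 14, which made it the most abundant of the 10 genes on both later days. All 6 later libraries were above all day 0 libraries. The rise was 3.02-fold at day 2 (log2 change 1.61 ± 0.26, adjusted p = 0.00281) and 3.41-fold at day 14 (1.76 ± 0.26, adjusted p = 0.00197), or by 1.38 and 1.32 on the log2 scale relative to the median of all genes. ABHD5, its coactivator, was far less abundant and was not called on either day. Its levels were 8.86, 2.90 and 8.06 TPM at day 0, 6.31, 6.89 and 6.21 TPM at day 2, and 16.0, 10.5 and 8.95 TPM at day 14, with log2 changes of 0.09 ± 0.36 at day 2 (adjusted p = 0.876) and 0.83 ± 0.36 at day 14 (adjusted p = 0.107). At day 14 every library was above every library of day 0 and of day 2, but 42.5% and 36.8% of all tested genes did the same. The day 14 value also exceeded that of day 2 by 0.74 ± 0.36 (adjusted p = 0.322, and adjusted p = 0.0288 without day 0 replicate 2).

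The coat proteins differed. PLIN2, which covers droplets in most cell types, was at 46.3, 32.3 and 32.8 TPM at day 0, at 141, 129 and 110 TPM at day 2, and at 36.7, 143 and 85.4 TPM at day 14. It rose 3.41-fold at day 2 (log2 change 1.75 ± 0.43, 1.52 relative to the median of all genes, adjusted p = 0.0157), a call that was lost without day 2 replicate 1 or 2 (adjusted p = 0.0559 and 0.0505). At day 14 replicate 1 was within the day 0 range while replicate 2 was at the level of day 2, and the change was not called (1.05 ± 0.43, adjusted p = 0.0874). Without day 14 replicate 1 it passed (log2 change 1.57, adjusted p = 0.00913). PLIN3, which is cytosolic until it binds new droplets, was at 173, 59.7 and 170 TPM at day 0, at 61.8, 88.2 and 58.0 TPM at day 2, and at 93.9, 88.5 and 74.0 TPM at day 14. Day 0 replicate 2 was the only day 0 library inside the range of the later days. The change was not called at day 2 (-0.82 ± 0.39, adjusted p = 0.146) or day 14 (-0.50 ± 0.39, adjusted p = 0.341). Without day 0 replicate 2 it was called lower on both days (log2 change -1.32, adjusted p = 0.00126, and -1.01, adjusted p = 0.00412), as it was under median-ratio scaling (adjusted p = 0.00848 and 0.0122).

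Among the enzymes of triacylglycerol synthesis, LPIN1 changed and the diacylglycerol acyltransferases were not called. LPIN1, a phosphatidate phosphatase that also acts as a nuclear coactivator, was at 7.21, 2.70 and 5.78 TPM at day 0, at 56.1, 57.9 and 59.6 TPM at day 2, and at 23.2, 28.4 and 27.7 TPM at day 14. The days did not overlap, and its 3 day 2 libraries had a coefficient of variation of 3.07%, against a median of 11.3% over 9842 genes with a mean of at least 5 TPM. It rose 11.1-fold at day 2 (log2 change 3.32 ± 0.28, adjusted p = 0.000206) and 5.05-fold at day 14 (2.21 ± 0.28, adjusted p = 0.00112), or by 3.09 and 1.77 on the log2 scale relative to the median of all genes. The lower value at day 14 than at day 2 (-1.11 ± 0.28) was not called (adjusted p = 0.107). It was called when the fit left out day 0 or its replicate 2, and under median-ratio or quantile scaling (adjusted p = 0.0136, 0.00572, 0.024 and 0.012). DGAT1 was at 12.7, 8.51 and 15.5 TPM at day 0, at 12.0, 16.8 and 12.1 TPM at day 2, and at 17.6, 12.6 and 11.5 TPM at day 14. DGAT2 was at 24.3, 10.5 and 23.6 TPM at day 0, at 17.2, 20.7 and 14.3 TPM at day 2, and at 22.8, 20.4 and 15.9 TPM at day 14. Both overlapped across all days. The log2 changes of DGAT1 were 0.16 ± 0.27 at day 2 and 0.18 ± 0.27 at day 14 (adjusted p = 0.663 and 0.608), and those of DGAT2 were -0.08 ± 0.32 and 0.09 ± 0.32 (adjusted p = 0.866 and 0.843), in the same fit.

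**Figure D2:**
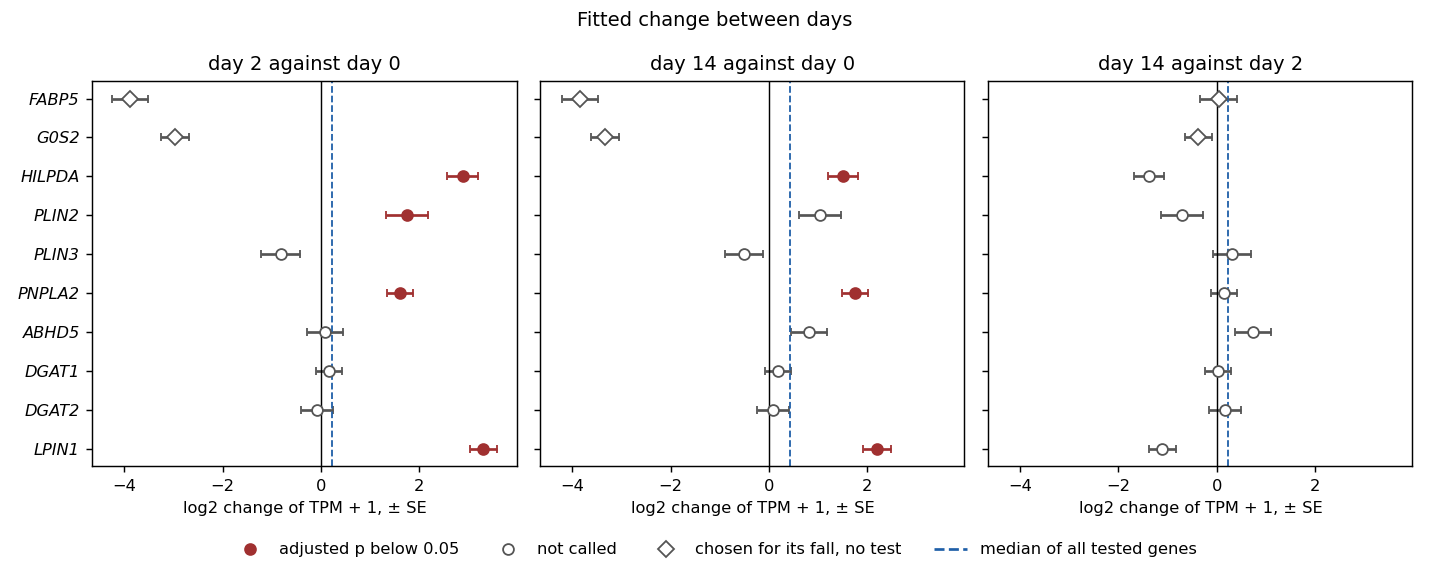
Fitted log2 change of TPM + 1 with its standard error for the 10 genes in 3 comparisons, with filled points for an adjusted p below 0.05, diamonds for the genes chosen for their fall and a dashed line at the median of all tested genes. HILPDA, PLIN2, PNPLA2 and LPIN1 lie to the right at day 2, only PLIN2 of these is an open point at day 14 against day 0, and no point is filled at day 14 against day 2.

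All 10 genes passed the filter of at least 1 TPM in at least 3 libraries. Of the 8 tested, 4 were called higher at day 2 against day 0 and none lower, where 19.2% of all 14144 tested genes were called higher and 11.5% lower (30.7% in either direction). The same 4 had every day 2 library above every day 0 library, as 33.4% of all genes had, and none had every library below, as 17.4% had. At an unadjusted p below 0.05 those counts were also 4 and 0. At day 14 against day 0, 3 of 8 were called higher and none lower (5 and 0 at an unadjusted p below 0.05), where 27.5% of all genes were called higher and 6.72% lower (34.2% in either direction). HILPDA, PNPLA2, ABHD5 and LPIN1 had every day 14 library above every day 0 library (42.5% of all genes), and none had every library below (9.95%). At day 14 against day 2, limma called 0 of 8 (2 lower and 0 higher at an unadjusted p below 0.05), where 0.212% of all genes were called higher and 0.205% lower (0.417% in either direction). ABHD5 lay wholly above day 2, and HILPDA and LPIN1 lay wholly below it, where 36.8% and 7% of all genes did so. The share called at day 14 against day 0 was thus near that of all genes. The median log2 change of the 8 was 0.89, 0.94 and 0.09 in the 3 comparisons, beside 0.23, 0.44 and 0.24 over all genes. Comparisons of days 2 and 14 with day 0 share the day 0 libraries. Leaving out day 2 replicate 1 or 2 gave 3 calls at day 2. Leaving out day 0 replicate 2 added 1 lower call (PLIN3) on each day.

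Ratios within a library do not depend on how that library was scaled. The lipase outweighed both inhibitors on every day, and the share of each inhibitor differed by day. HILPDA was at 0.157, 0.316 and 0.181 of PNPLA2 in the day 0 libraries, at 0.513, 0.509 and 0.555 at day 2, and at 0.0947, 0.155 and 0.399 at day 14. The ratio was higher in all day 2 libraries than at day 0, and day 14 overlapped with day 0 but lay below day 2. G0S2 was at 0.172, 0.307 and 0.135 of PNPLA2 at day 0, at 0.00558, 0.00503 and 0.00305 at day 2, and at 0.00173, 0.00453 and 0.000910 at day 14, with no overlap between day 0 and the later days. ABHD5 was at 0.0953, 0.0488 and 0.0806 of PNPLA2 at day 0, at 0.0253, 0.0242 and 0.0272 at day 2, and at 0.0474, 0.0334 and 0.0429 at day 14. That ratio was lower at day 2 than on either other day in every library. PLIN2 was below PLIN3 in all day 0 libraries (0.268, 0.540 and 0.192) and above it in all day 2 libraries (2.27, 1.46 and 1.89). At day 14 it was at 0.391, 1.62 and 1.15, on both sides of 1. DGAT1 was at 0.524 to 0.847 of DGAT2 in all 9 libraries, and the days overlapped. The ratios are given as a description, with no test.

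**Figure D3:**
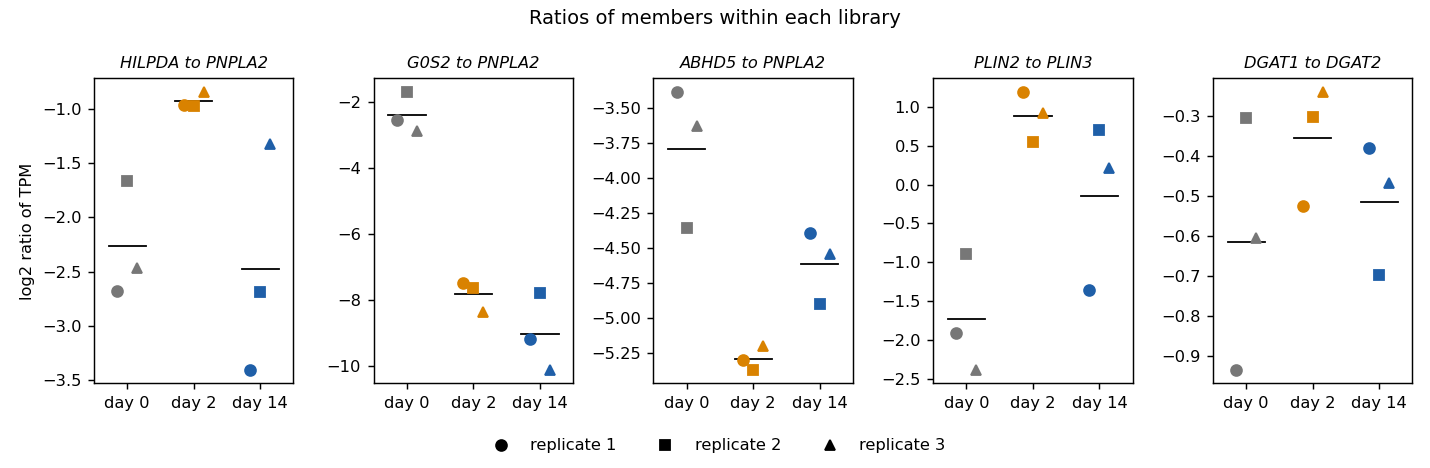
Log2 ratio of TPM between pairs of members in each library, by day, with symbols for replicates and a line at the mean of 3. The HILPDA and PLIN2 ratios are highest on average at day 2, the G0S2 ratio is far lower after day 0, and the DGAT ratio overlaps across days.

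The day 14 libraries differed from each other more for several of these genes than for most genes. The coefficient of variation at day 14 was 60.3% for PLIN2, 47.6% for HILPDA and 35.6% for FABP5, against a median of 13.7% over 10357 genes with a mean of at least 5 TPM, while LPIN1 (10.8%) and PLIN3 (12.0%) were below that median. PLIN2 was 3.91-fold higher in the highest than in the lowest day 14 library, and HILPDA 2.60-fold. Replicate 1 was lowest for HILPDA, PLIN2, FABP5 and LPIN1 and highest for PNPLA2, PLIN3, ABHD5, DGAT1 and DGAT2. At day 2 the same coefficients for PLIN2 and HILPDA were 12.3% and 7.75%, around that day's median of 11.3%.

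The upstream sequences of PLIN2 and PNPLA2 are shown because both messages rose at day 2 and each holds a match to a searched motif. RefSeq promoter entries (GRCh38.p14) matched 6 of the 10 genes (G0S2, LPIN1, ABHD5, PLIN2, PNPLA2 and PLIN3). The 250 bases before the annotated start are printed 5′ to 3′ on the gene's strand, with matches in capitals, for PLIN2 (chr9:19127493-19127742, minus strand) and PNPLA2 (chr11:818664-818913, plus strand).
PLIN2: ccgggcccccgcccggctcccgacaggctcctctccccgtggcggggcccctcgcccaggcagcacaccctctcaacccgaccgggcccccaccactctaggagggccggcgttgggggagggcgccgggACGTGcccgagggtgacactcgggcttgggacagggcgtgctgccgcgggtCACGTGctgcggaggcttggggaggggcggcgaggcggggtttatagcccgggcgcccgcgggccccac
PNPLA2: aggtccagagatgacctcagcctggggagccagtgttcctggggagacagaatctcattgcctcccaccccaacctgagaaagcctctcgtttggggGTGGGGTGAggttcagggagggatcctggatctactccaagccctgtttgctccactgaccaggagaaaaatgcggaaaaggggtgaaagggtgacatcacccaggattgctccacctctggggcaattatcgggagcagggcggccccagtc
ACGTG, a form of the core of hypoxia response elements, was searched on both strands and occurs in 18.5% of 34943 promoters. Among the 6 genes only PLIN2 held ACGTG, at -120 to -116 from the start and again at -69 to -64. There CACGTG is an overlapping match on both strands. GCGTG, the other form of that core, was not searched, and it stands unmarked in the PLIN2 window. Whether the other genes hold GCGTG is therefore not given here. TCACNCCAC, a sterol regulatory element sequence, occurs in 0.881% of promoters and was found only in PNPLA2, on the opposite strand at -153 to -145. TGATGNAA, the core of elements bound by ATF4 (3.15% of promoters), and the direct repeat with 1 spacer base that PPAR receptors bind (0.0172%), had no match in these windows for the 6 genes. A match is only a description of the letters in this window.

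Beyond the 10 genes, 96 others that handle droplets, neutral lipid or fatty acids were listed in 7 groups, and 60 reached the test. At day 2, 14 of the 60 were called higher and 6 lower, where 19.2% and 11.5% of all genes were. The median log2 change was 0.36 (0.23 over all genes). At day 14, 20 were higher and 4 lower, where 27.5% and 6.72% of all genes were, with a median of 0.47 (0.44 over all genes). At day 14 against day 2 limma called 0, where 0.212% of all genes were higher and 0.205% lower. At an unadjusted p below 0.05 that comparison gave 4 higher and 6 lower of the 60. The shares called were near those of all genes. Leaving out day 0 replicate 2 gave 12 lower calls at day 2, 8 lower calls at day 14, and 7 higher and 6 lower at day 14 against day 2. Over all genes the lower calls then became 3351 at day 2 and 2063 at day 14, in place of 1633 and 951. At day 14 against day 2 there were then 3307 higher and 541 lower of all genes, in place of 30 and 29. Leaving out a day 2 library gave 3, 3 and 1 lower calls at day 2 for replicates 1, 2 and 3. Leaving out any 1 day 14 library gave 12 higher calls at day 14.

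Among other droplet coat and surface genes levels ranged widely. AUP1, a lipid droplet protein that acts in protein quality control, was at 47.7 TPM or more. FAF2, a partner in the same process, was at 11.7 to 68.2 TPM. Both lowest values were those of day 0 replicate 2, and FAF2 was at 42.9 TPM or more in all other libraries. PLIN1, CIDEA, CIDEB and CIDEC, which coat or fuse the droplets of adipocytes and hepatocytes, stayed under 1 TPM in all libraries. PLIN4, a perilipin of fat and muscle, rose to 5.80 TPM at day 2 and 2.39 TPM at day 14, against 0.396 TPM at day 0 (log2 change 2.27, adjusted p = 0.000667, and 1.24, adjusted p = 0.00839). Its day 14 call was lost under quantile scaling (adjusted p = 0.0641). PLIN4 was under 1 TPM in every day 0 library and passed the filter only through the later days. A difference was thus built in, and the calls add nothing to its values. METTL7B, a methyltransferase-like droplet protein, fell to 0.643 and 0.925 TPM, against 4.73 TPM at day 0 (-1.81, adjusted p = 0.0016, and -1.58, adjusted p = 0.00296). Without day 2 replicate 2 its day 2 mean was 0.420 TPM. RAB18, a droplet GTPase, had log2 changes of 0.50 and 0.66 at days 2 and 14, calls that were lost under 14 and 5 of 20 alternatives. In this group 2 of 8 tested genes were higher and 1 lower at day 2 (1 to 2 higher and 1 to 2 lower on leaving out any 1 library), where 19.2% and 11.5% of all genes were. At day 14 these were 3 and 1 (1 higher without day 14 replicate 2), where 27.5% and 6.72% of all genes were. The 3 higher became 0 under quantile scaling, and 1 under median-ratio scaling, with a mean of 5 TPM or more as the filter, in the fit of the 2 days compared and without microRNA and small nucleolar RNA symbols. LDAH, a droplet hydrolase, was the other day 14 rise, and it was lost under 13 of 20 alternatives.

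Enzymes of glycerolipid synthesis other than the members were mostly not called. At day 2, 1 of 14 was higher and 1 lower, where 19.2% and 11.5% of all genes were. At day 14, 0 were higher and 1 lower, where 27.5% and 6.72% of all genes were. Of 14 tested, AGPAT2, which makes phosphatidic acid, rose at day 2 to 115 TPM, against 60.6 TPM at day 0 (log2 change 0.92, adjusted p = 0.00665), a call lost under median-ratio scaling. GPAM, the mitochondrial acyltransferase at the start of the pathway, fell to 1.78 TPM at day 2, against 3.65 TPM at day 0 (-0.74, adjusted p = 0.0139), which was lost without day 2 replicate 1 or 3. Its fall at day 14 (-0.54, adjusted p = 0.0424) was lost under 12 of the 19 alternatives in which it was tested. Leaving out day 0 replicate 2 gave 5 lower calls in this group at day 2 and 3 at day 14, and leaving out day 0 replicate 3 gave 2 higher at day 14. Median-ratio scaling gave 4 and 3 lower on the 2 days, and quantile scaling 3 and 3. Lower calls over all genes, 1633 and 951 on the 2 days, also became 3351 and 2063 without day 0 replicate 2. They became 2539 and 2315 under median-ratio scaling, and 2815 and 2454 under quantile scaling. Among 6 lipases, 0 were higher and 1 lower at day 2, where 19.2% and 11.5% of all genes were. At day 14, 1 was higher and 1 lower, where 27.5% and 6.72% of all genes were. When day 0 replicate 2 was left out, the lipase counts were 1 and 1 at day 2, and 1 and 2 at day 14. CES1, a carboxylesterase that can hydrolyse triacylglycerol, fell to 4.06 TPM at day 14, against 22.1 TPM at day 0 (-2.27, adjusted p = 0.00295). LIPA, the acid lipase of lysosomes, was at 120 TPM at day 14, against 48.4 TPM at day 0 (1.42, adjusted p = 0.0347, lost under 10 of 20 alternatives). ABHD6, a monoacylglycerol lipase, had a log2 change of -1.19 at day 2 (adjusted p = 0.0493), lost under 14 of 20.

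Of 10 tested genes that act in droplet assembly at the endoplasmic reticulum, 7 were higher and 0 lower at day 14, with a median log2 change of 0.94 (0.44 over all genes). Over all genes 27.5% were higher and 6.72% lower. The 7 include TM6SF2, which passed the filter only through the later days. The 7 higher became 2 under median-ratio scaling, 3 under quantile scaling, 3 in the fit of the 2 days compared and 4 without microRNA and small nucleolar RNA symbols. That count was 3, 4 and 3 without day 14 replicates 1, 2 and 3, and 1 was lower without day 0 replicate 1. TMEM41B, a lipid scramblase, rose to 96.5 TPM at day 2 and 88.1 TPM at day 14, against 35.1 TPM at day 0 (log2 change 1.44, adjusted p = 0.00061, and 1.32, adjusted p = 0.00102). Its day 14 call was lost under median-ratio scaling (adjusted p = 0.0803). VPS13C, a lipid transfer protein, had a log2 change of 1.17 at day 14 (adjusted p = 0.0253), lost without day 14 replicate 1, 2 or 3. The group had 2 higher, TM6SF2 among them, and 1 lower at day 2, where 19.2% and 11.5% of all genes were. It had 4 higher when day 0 replicate 1 or replicate 2 was left out, where 2672 and 3471 of all genes were. Median-ratio and quantile scaling gave 4 and 5 higher, where 2795 and 2591 of all genes were, in place of 2715. TM6SF2 rose at day 2 to 2.39 TPM, against 0.424 TPM at day 0 (1.21, adjusted p = 0.00903). At day 14 it was at 2.02 TPM (1.08, adjusted p = 0.0136). It passed the filter only through the later days, where it is high, so its calls on both days add nothing to its values. BSCL2, which encodes seipin, fell to 1.91 TPM, against 12.6 TPM at day 0 (-1.97, adjusted p = 0.0211), a call lost without day 2 replicate 2 or 3 and in the fit of the 2 days compared. Its day 0 libraries were at 4.42, 24.9 and 8.60 TPM, and without replicate 2 the day 0 mean was 6.51 TPM (-1.36, adjusted p = 0.0131).

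Of 5 tested intracellular lipid binding proteins other than FABP5, 2 were higher and 1 lower on both days. Over all genes 19.2% were higher and 11.5% lower at day 2, and 27.5% and 6.72% at day 14. When day 0 replicate 2 was left out, 4 and 3 of the 5 were higher on days 2 and 14. Over all genes 3471 and 4873 were then higher, in place of 2715 and 3890. FABP4, the binding protein of adipocytes and macrophages, was called lower. It passed the filter only through day 0, where it is high, so a difference was built in and the calls add nothing to its values. It was at 3.11, 10.6 and 1.65 TPM at day 0, at 0.949, 0 and 0.632 TPM at day 2, and at 0, 0 and 0.230 TPM at day 14 (log2 change -1.77, adjusted p = 0.026, and -2.23, adjusted p = 0.00979). The day 2 call was lost without day 2 replicate 2 or 3, with the replicate block and in the fit of the 2 days compared. Without day 0 replicate 2 its day 0 mean was 2.38 TPM. RBP5 rose at low levels, to 2.18 TPM at day 2, against 0.330 TPM at day 0 (1.26, adjusted p = 0.00452). Without day 0 replicates 2 and 3 in turn, its day 0 mean was 0.495 and 0.215 TPM. Its rise at day 14 (0.85, adjusted p = 0.022) was lost under 4 of the 19 alternatives in which it was tested, without day 14 replicates 1 and 3 among them. RBP5 passed the filter only through the later days, where it is high, so its calls add nothing to its values. CRABP2, the retinoic acid carrier, was abundant in all libraries (129 to 267 TPM).

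Fatty acid uptake and activation genes gave 4 higher and 1 lower of 9 at day 2, and 4 and 0 at day 14, where over all genes 19.2% and 11.5%, and 27.5% and 6.72%, were called higher and lower. With the filter set to a mean of 5 TPM or more 2 were higher on each day, quantile scaling gave 2 higher at day 14 and 2 lower at day 2, and either scaling gave 1 lower at day 14. Leaving out day 14 replicate 2 or replicate 3 gave 2 higher at day 14, and leaving out day 0 replicate 2 gave 1 lower. ACSL3, the acyl-CoA synthetase of nascent droplets, rose to 52.8 TPM at day 2 and 47.4 TPM at day 14, against 14.9 TPM at day 0 (log2 change 1.81, adjusted p = 0.00121, and 1.65, adjusted p = 0.00188). VLDLR, a lipoprotein receptor, rose to 3.94 and 3.29 TPM, against 0.576 TPM at day 0 (1.65, adjusted p = 0.000667, and 1.44, adjusted p = 0.00132). It passed the filter only through the later days, where it is high, so its calls add nothing to its values. SLC27A4, a fatty acid transport protein, had a log2 change of -1.39 at day 2 (adjusted p = 0.0175), a call that 4 of the 20 alternatives ended, all by leaving out a library. The transporter CD36 and the lipase LPL stayed at or under 0.329 TPM. Of 8 PPAR receptors, coactivators and targets, 3 rose on both days and none fell, where 19.2% and 27.5% of all genes were higher. Leaving out day 0 replicate 2 gave 1 lower at day 2, and median-ratio and quantile scaling gave 2 and 1 lower at day 14. The 3 that rose were ANGPTL4, PPARA and RXRB. ANGPTL4, a secreted lipase inhibitor, was at 384 TPM at day 2 and 268 TPM at day 14, against 70.9 TPM at day 0 (2.41, adjusted p = 0.000286, and 1.88, adjusted p = 0.000849). The changes of PPARA were 1.62 (adjusted p = 0.00152) and 1.56 (adjusted p = 0.0019). Those of RXRB, the partner of nuclear receptors, were 1.32 (adjusted p = 0.00903) and 1.46 (adjusted p = 0.00568). PPARA passed the filter only through the later days, where it is high, so its calls add nothing to its values.

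**Figure D4:**
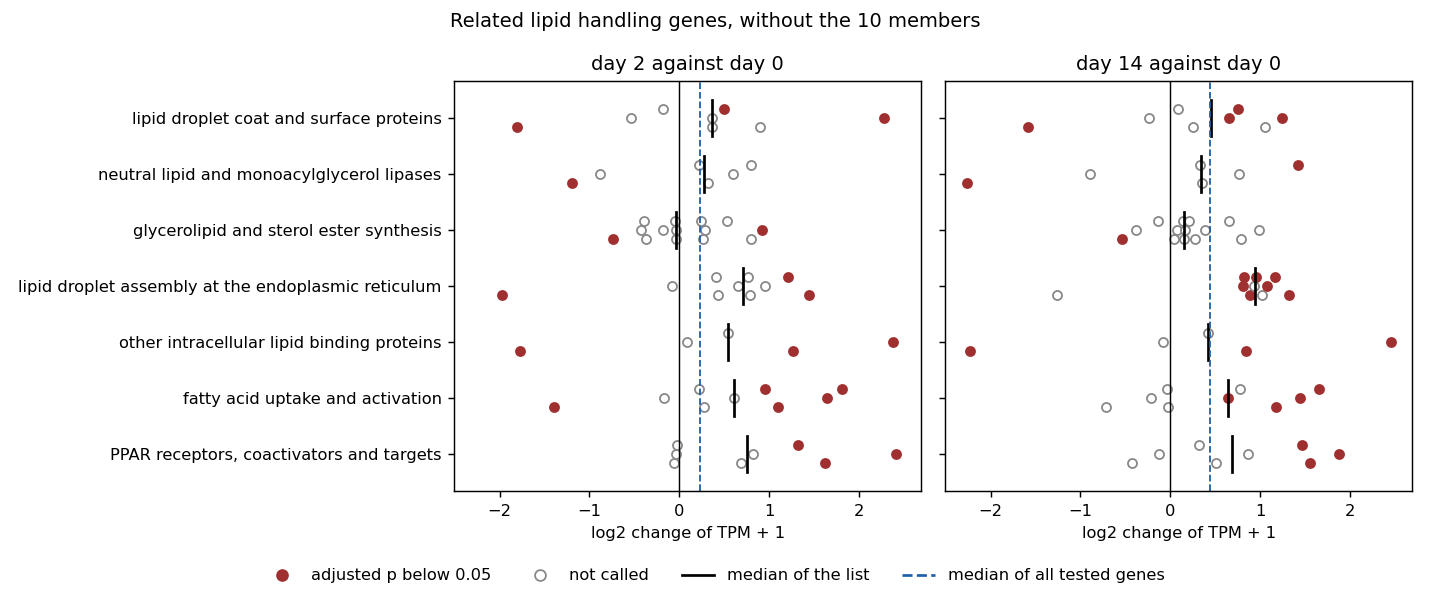
Log2 change of TPM + 1 of the 60 tested genes related to the members, by group, at days 2 and 14 against day 0, with filled points for an adjusted p below 0.05, a bar at each group's median and a dashed line at the median of all tested genes. The assembly group lies mostly to the right at day 14, where 7 of its 10 points are filled, and the synthesis group stays near 0. The 7 include TM6SF2, which passed the filter only through the later days. Over all genes 27.5% were called higher at day 14.

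The genes whose profiles lay nearest to 3 of the members were found by the root mean square difference of log2(TPM + 1). Each profile was centred on its mean over the 9 libraries. The search covered 9161 tested genes with a mean of at least 5 TPM. It left out symbols of microRNAs, other small RNAs, antisense, LINC, LOC, open reading frame, KIAA, FLJ and clone-based genes. For FABP5 they were the BCL2 family gene BCL2A1 (0.41), the homeobox gene NKX6-2 (0.43) and the securin PTTG1 (0.46), while the profile of FABP5 itself had a root mean square size of 1.87. For G0S2 they were 3 genes of the dividing cell, the ubiquitin-conjugating enzyme UBE2T (0.38), the cyclin CCNB1 (0.41) and the PCNA-binding PCLAF (0.42), beside 1.52 for G0S2. For HILPDA they were the glutathione synthesis gene GCLC (0.25) and the ligand genes WNT11 (0.29) and FGF11 (0.32), beside 1.23 for HILPDA. GCLC was at 8.70, 8.72 and 11.2 TPM at day 0, at 96.7, 78.7 and 68.7 TPM at day 2, and at 22.1, 28.7 and 33.5 TPM at day 14, so that its days, like those of HILPDA, did not overlap. These distances describe the 9 libraries and their shared days.

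**Figure D5:**
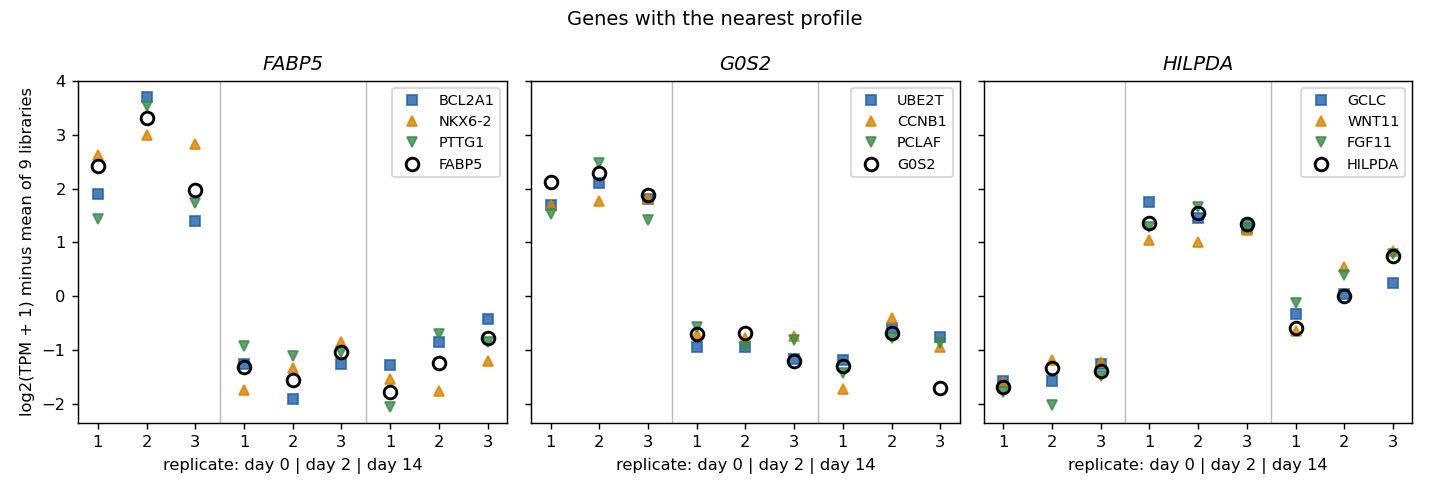
Log2(TPM + 1) minus its mean over 9 libraries for FABP5, G0S2 and HILPDA (open circles) and the 3 nearest genes of each, by replicate within day 0, day 2 and day 14. FABP5 and G0S2 and their neighbours are high only in the 3 day 0 libraries, and HILPDA and its neighbours are highest at day 2 and between at day 14.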

How the data were processed

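PANC-1 cells were profiled by RNA sequencing in 9 libraries, 3 per day, and columns were assigned by the day and replicate in their names. The values are TPM per gene symbol as deposited by the authors in a single table; per the submitters' processing notes, Salmon and the build hg19 were used. Not given in the sources used here are its version, annotation and strand setting. In GENCODE v29, 8 of the 10 members have an overlapping gene on the opposite strand, whose reads could be counted with theirs.

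The 14144 genes that reached 1 TPM in 3 or more libraries were tested on log2(TPM + 1), a scale that understates changes of low genes, with limma 3.58.1 in R 4.3.3: a single two-sided fit of the 9 libraries with trend, Benjamini-Hochberg adjusted over all tested genes, called at 0.05. The fit was run on simulated data with known changes, which checked mean estimates and the signs of calls but not the rate of false calls. The members and lists were chosen with earlier results of these data known, and no set test was run. Counts of related genes include FABP4, PLIN4, TM6SF2, RBP5, VLDLR and PPARA. These passed the filter only through the days where they are high. Related genes are named as up to 2 rises and 2 falls per list and comparison, and not all are printed. They were taken by size among calls with a mean of at least 1 TPM in the higher day. Genes at 0 or under 1 TPM, AUP1, FAF2, CRABP2, CD36, LPL and RXRB were named after their values were seen. The values of 1 related gene are not reported here. For FABP5 and G0S2 the fitted changes and ranks carry no test. Values are mean ± SD, changes log2 ± SE. Alternatives covered pseudocounts 0.1 and 5, filters, median-ratio and quantile scaling, variance models, a replicate block, fits of 2 days, leaving out each library and, chosen after seeing the data, TPM without microRNA and small nucleolar RNA symbols.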

Additional observations from a re-analysis of the deposited data

How the results depend on the processing

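The rises at day 2 (4 members) and day 14 (3 members) against day 0 kept those counts under the alternatives that used all libraries of the days compared, except 2 at day 14 under median-ratio scaling, where the HILPDA call was lost. PNPLA2 and LPIN1 kept their calls against day 0 under all 20 alternatives on both days, and HILPDA did at day 2. Under median-ratio scaling 1 member (PLIN3) was lower on each day and 1 (LPIN1) at day 14 against day 2, where quantile scaling also gave 1 and the fit of only those 2 days gave 2. Leaving out 1 library gave 0 to 1 lower members at day 2 and at day 14 against day 0, and 0 to 1 higher and 0 to 2 lower at day 14 against day 2. For the 60 related genes the calls at day 2 and day 14 against day 0 were 8 higher and 2 lower, and 12 and 1, with the filter set to a mean of 5 TPM or more, which tests fewer genes. Median-ratio scaling gave 10 lower at day 2, and 11 higher and 10 lower at day 14; quantile scaling gave 11 and 9 at day 14, and 4 lower at day 14 against day 2. Fits of only 2 days gave 3 lower at day 2, 12 higher at day 14, and 6 higher and 5 lower at day 14 against day 2. Without microRNA and small nucleolar RNA symbols, 13 were higher at day 14. Leaving out 1 library gave 1 to 12 lower at day 2, 12 to 23 higher and 3 to 8 lower at day 14, and 0 to 7 higher and 0 to 6 lower at day 14 against day 2. Over all genes the 2715 higher and 1633 lower at day 2 became 1697 higher with that filter, 2539 lower under median-ratio and 2815 lower under quantile scaling, and 1671 to 3471 higher and 945 to 3351 lower on leaving out 1 library. The 3890 higher and 951 lower at day 14 became 2451 higher with that filter, 2418 and 2315 under median-ratio scaling, 2416 and 2454 under quantile scaling, 2349 and 578 in a fit of those days alone, and 2572 to 4873 and 628 to 2063 on leaving out 1 library. The 30 higher and 29 lower at day 14 against day 2 became 3 and 3 with a pseudocount of 0.1, 71 and 56 with 5, 11 and 13 with that filter, 85 lower under median-ratio scaling, 120 and 221 under quantile scaling, 10 and 17 without microRNA and small nucleolar RNA symbols, 2138 and 381 in a fit of those days alone, and 3307 and 541 without day 0 replicate 2. The cause of these shifts was not tested. Adding 1 TPM to both genes moved the log2 difference of the G0S2 to PNPLA2 ratio to -4.59 at day 2 and -5.10 at day 14, in place of -5.45 and -6.65. The day 14 difference of the HILPDA to PNPLA2 ratio was -0.78 to 0.26 and that of DGAT1 to DGAT2 -0.060 to 0.25 on leaving out 1 library. The fitted falls of G0S2 ranged from -3.70 to -1.76 at day 2 and from -4.57 to -1.87 at day 14, with the pseudocount setting both ends. Same-numbered libraries were not paired by the labels, and their deviations from the day means correlated at -0.079 to 0.015. A fit with the replicate block gave 4 and 3 higher members, as without it, 12 higher and 4 lower related genes at day 2, 15 and 3 at day 14, and 1 higher and 1 lower of all genes at day 14 against day 2. The depth behind these TPM is unknown, so G0S2 and other values near 1 TPM have no counting interval.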

Other observations

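FABP5 lies in a cluster of binding protein genes. In RefSeq order PMP2, FABP9, FABP4 and FABP12 follow it on the far side of PAG1, and of these only FABP4 exceeded 1 TPM, at day 0 alone. FABP4 passed the filter only through that day, so its lower call adds nothing here. On the other side PAG1, a membrane adaptor, was at 7.80 ± 1.28 TPM at day 2 and 6.86 ± 3.93 TPM at day 14, against 2.10 ± 1.10 TPM at day 0 (SD, n = 3 each; log2 change 1.56, limma adjusted p = 0.0172, and 1.30, adjusted p = 0.0326). ZBTB10, a zinc finger gene beyond it, was at 13.5 ± 1.16 and 10.8 ± 1.95 TPM, against 3.07 ± 0.73 TPM (1.85, adjusted p = 0.000609, and 1.54, adjusted p = 0.00144). IMPA1, past the cluster, was at 19.2 ± 1.20 and 18.9 ± 2.48 TPM, against 25.3 ± 0.81 TPM, and was not called (adjusted p = 0.106 and 0.082). TPD52 and MRPS28, on the side of ZBTB10, were not called on either day. Beside G0S2, the laminin gene LAMB3 was at 2.68 ± 0.234 TPM at day 2, not called (adjusted p = 0.105). It fell to 1.37 ± 0.211 TPM at day 14, against 4.79 ± 1.88 TPM at day 0 (-1.23, adjusted p = 0.00727). HSD11B1, on the other side, was listed at 0 in all libraries. CD46, further out, was higher, at 56.6 ± 3.65 and 46.0 ± 1.17 TPM, against 31.1 ± 6.73 TPM at day 0 (0.87, adjusted p = 0.01, and 0.58, adjusted p = 0.0454). PLXNA2 and C1orf74 were not called on either day. These neighbours were chosen after values of the members had been seen, and their calls were not run under the alternatives.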
